A study of Caenorhabditis elegans with 2 samples.

Results

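The regions described here are the places where immunoprecipitated DNA was gathered at a divergent promoter, the stretch between a pair of protein-coding genes that are read away from each other. They were chosen by position alone from the authors' pooled list of regions. A region was a member if its summit, the base that the authors marked as its highest point, was no more than 1000 bp before and no more than 200 bp past the 5′ ends of protein-coding genes on both strands, as Ensembl gene records place them. Of 2689 pooled regions on the nuclear chromosomes, 299 met the rule, or 11.1% (95% exact interval 9.96 to 12.4%). A further 728 regions lay in such windows of genes on a single strand and are called one-strand promoter regions. The remaining 1662 lay outside all these windows. Intervals are exact binomial (Clopper-Pearson) ones at 95%. The limit printed beside a count of 0 is instead 3 counts over the total. Both cover counting error only.

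The data are chromatin immunoprecipitation followed by sequencing (ChIP-seq) of Y116A8C.19, a protein of the nematode Caenorhabditis elegans. The strain, OP532, carries the unc-119(tm4063) allele on chromosome III and the transgene wgIs532, from which Y116A8C.19 is made with GFP and FLAG at its C-terminal end. An antibody against GFP was used on sonicated chromatin of whole hermaphrodite L1 larvae, taken 6 hours past a synchronisation in which L1 larvae were starved after bleaching. There were 2 biological replicates of 1 group, with no second genotype, treatment or stage, and the worms' whole bodies were pooled, so the cells in which the tagged protein bound are not known. The transgene is a single line, and the sources used here do not say how its level compares with that of the untagged protein.

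In a divergent pair the genes lie head to head on opposite strands, and the DNA between them can serve as promoter to both. Compact genomes such as that of C. elegans hold many such pairs, and in mammals housekeeping genes are often among them. A protein that sits between such genes lies upstream of both at once, so its position alone does not say which of them, if either, it acts on. Many worm transcripts are trans-spliced, which means that their first bases are replaced by a leader, and the annotated 5′ end can then lie downstream of where transcription starts.

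Sequences are shown first because later sections return to their letters. The first set was picked for an element, not for strength alone. It holds the strongest 8 members with a match to GAGTACAC in the printed stretch, among those on chromosomes II to V and X with a summit between the 5′ ends and at least 60 bases free of annotated exons there. All 8 are in the authors' IDR list, the list kept by their irreproducible discovery rate procedure. Each is read 5′ to 3′ on the strand given, from WBcel235, the assembly that is also called ce11. The stretches run within 60 bp of the summit at most, lie between the annotated 5′ ends and leave out annotated exons. Capitals mark matches, with up to 1 mismatch and on either strand, to the 8-base elements GAGTACAC and CTAGGCCA.
F10E9.7 and F10E9.5, chrIII:8307506-8307591, minus strand: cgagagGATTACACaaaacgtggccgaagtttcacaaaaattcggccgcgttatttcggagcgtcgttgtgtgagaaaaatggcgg
F01D4.5 and ced-5, chrIV:10483857-10483977, minus strand: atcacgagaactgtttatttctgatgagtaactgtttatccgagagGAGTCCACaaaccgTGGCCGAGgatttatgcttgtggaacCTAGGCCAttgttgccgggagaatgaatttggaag
lron-10 and hpr-9, chrIII:10621370-10621479, minus strand: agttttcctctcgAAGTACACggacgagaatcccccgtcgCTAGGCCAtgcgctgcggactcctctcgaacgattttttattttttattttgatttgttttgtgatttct
rict-1 and gfm-1, chrII:13117260-13117380, minus strand: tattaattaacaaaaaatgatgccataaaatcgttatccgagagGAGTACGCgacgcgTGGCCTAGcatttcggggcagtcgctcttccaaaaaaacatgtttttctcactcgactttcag
nasp-2 and C50B6.3, chrV:13313164-13313284, minus strand: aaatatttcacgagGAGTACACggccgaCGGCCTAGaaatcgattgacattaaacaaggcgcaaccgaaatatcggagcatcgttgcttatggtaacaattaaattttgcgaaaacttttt
C45G9.11 and C45G9.2, chrIII:5068964-5069065, minus strand: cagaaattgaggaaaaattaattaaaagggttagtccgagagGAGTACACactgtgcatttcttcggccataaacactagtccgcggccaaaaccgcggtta
C01G10.10 and C01G10.9, chrV:15082442-15082529, plus strand: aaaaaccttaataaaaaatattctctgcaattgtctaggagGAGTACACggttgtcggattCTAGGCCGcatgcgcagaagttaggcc
C56A3.6 and cav-2, chrV:13556784-13556904, plus strand: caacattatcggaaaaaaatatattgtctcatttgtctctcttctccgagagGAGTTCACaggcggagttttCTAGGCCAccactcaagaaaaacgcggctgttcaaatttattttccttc
In the next sequences, from members of ranks 26 and 33, neither 8-base element was found within 75 bp of the summit with up to 1 mismatch. The first of them does hold a copy of a longer, joined element that is described below.
W02H5.16 and W02H5.19, chrV:2638664-2638784, plus strand: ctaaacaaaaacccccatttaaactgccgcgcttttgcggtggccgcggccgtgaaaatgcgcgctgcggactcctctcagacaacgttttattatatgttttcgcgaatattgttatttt
prp-19 and K10D2.5, chrIII:5172627-5172719, plus strand: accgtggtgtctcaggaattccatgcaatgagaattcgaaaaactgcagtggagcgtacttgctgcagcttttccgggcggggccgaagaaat
In most of the first set, which was selected for that element, the letters directly before the element related to GAGTACAC end in cgagag. The copies related to CTAGGCCA lie on its other side, in the sequences of F01D4.5 and ced-5, rict-1 and gfm-1, nasp-2 and C50B6.3, and C01G10.10 and C01G10.9 among others.

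All 198 regions of the authors' IDR list occur in the pooled list with the same coordinates, and they are its 198 strongest by the authors' signal value. The list of replicate 1 held 22595 nuclear regions and that of replicate 2 held 22356. Signal values were used only to rank regions within a list, because their scale is not given in the sources used here. No file gives read counts, so depth is unknown. With 2 replicates of 1 group no exact permutation test over samples can pass 0.05, and regions of the same libraries are not replicates, so the comparisons are given as counts, medians and intervals without p-values. No pooled region lay in the promoter window of the gene Y116A8C.19 itself or in that of unc-119.

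Members were common near the top of the pooled list and scarce near its end. Of the 299 members 66 were in the IDR list, which is 22.1% (17.5 to 27.2%), where 7.36% of all nuclear pooled regions were. Among one-strand promoter regions 88 of 728 were in the IDR list, or 12.1% (9.81 to 14.7%), and outside the windows 44 of 1662, or 2.65% (1.93 to 3.54%). The intervals of the 3 classes do not overlap. Seen from the other side, members made up 33.3% of the IDR list (26.8 to 40.4%) and one-strand promoter regions 44.4%. The median rank of members by signal was 577 (quartiles 224 and 1420), against 1160 for one-strand promoter regions and 1529.5 outside the windows. Pooled signal values of members ran from 24.5 to 248 with a median of 33.9.

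The same order was seen in each replicate. Members were 32% of the 25 strongest pooled regions, 33.5% of those ranked 26 to 198, 23.5% of those ranked 199 to 500 and 4.79% of those beyond rank 2000. In the list of replicate 1 the divergent share was 36% of the 25 strongest regions and 2.93% of those beyond rank 2000. In that of replicate 2 these shares were 36% and 2.82%. Between ranks 199 and 500 the replicates parted, with 22.8% in replicate 1 (18.2 to 28.0%) and 12.3% in replicate 2 (8.77 to 16.5%). Of the 198 best regions of replicate 1, which are 0.876% of its list, 63 lay at divergent promoters. Of the 198 best of replicate 2, which are 0.886% of its list, 62 did.

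**Figure D1:**
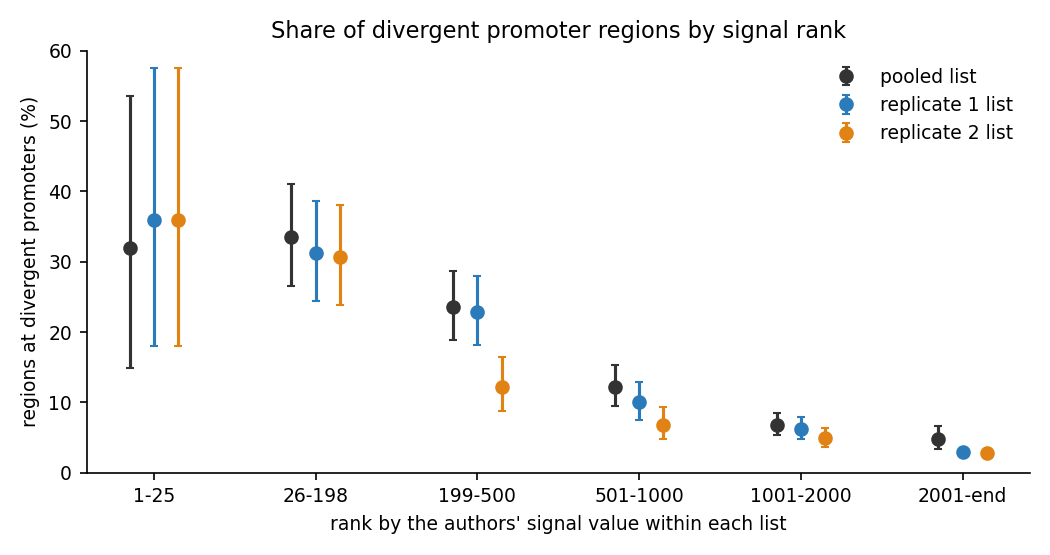
Percent of regions at divergent promoters (y axis) by rank of the authors' signal value within each list (x axis), for the pooled list and the list of each replicate; bars are exact 95% intervals of the counts. In all 3 lists the share is between 30.6 and 36% down to rank 198 and below 5% beyond rank 2000.

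Windows that serve both strands are a small part of the genome, and regions were dense in them. They cover 2.09 Mb, or 2.09% of the nuclear genome, and held 143 pooled regions and 31.5 IDR regions per Mb. One-strand windows cover 19.4 Mb and held 37.5 pooled and 4.53 IDR regions per Mb, and the remaining 78.8 Mb held 21.1 and 0.559 per Mb. The best regions of replicate 1 gave 30.1, 4.48 and 0.609 per Mb in the 3 kinds of sequence, and those of replicate 2 gave 29.6, 4.07 and 0.724. A base in a divergent window tends to lie closer to a 5′ end, so the count was repeated within 300 bp upstream of one. There the density was 63.4 IDR regions per Mb in divergent windows (62 regions) and 11.3 in one-strand windows (54 regions).

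The difference in IDR share between divergent and one-strand promoter regions depended on the length of the upstream gap, the distance from the nearest 5′ end to the next protein-coding gene upstream of it. With a gap of 1 to 200 bp, 15 of 30 members were in the IDR list (50%, 31.3 to 68.7%) against 5 of 54 one-strand regions (9.26%, 3.08 to 20.3%). With a gap of 201 to 400 bp the shares were 22.4% and 23.0%. Over gaps of 201 to 1000 bp together, 48 of 229 members (21.0%, 15.9 to 26.8%) and 38 of 201 one-strand regions (18.9%, 13.7 to 25%) were in the IDR list, so that the intervals overlap widely. The median rank over these gaps was 565 for members and 1004 for one-strand regions. Among one-strand regions 293 had a gap above 2000 bp, and 10.2% of them were in the IDR list. The rule does not allow a member so wide a gap.

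At matched distance to the nearest 5′ end the difference did not follow the distance in one direction. Summits within 50 bp of an end were in the IDR list at 35.7% of members (20 of 56, 23.4 to 49.6%) and at 9.72% of one-strand regions (7 of 72, 4.0 to 19.0%). At 51 to 100 bp the shares were 10.9% (6 of 55) and 12.5% (8 of 64), and at 101 to 200 bp 27.7% (23 of 83) and 11.4% (17 of 149). At 201 to 400 bp they were 19.3% and 18.8%, and at 401 to 1000 bp 4.55% (1 of 22) and 8.61% (23 of 267). The distance and gap classes were chosen after the data were seen.

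The strongest region of the whole pooled list was a member. It lay on chromosome III at 7520752 to 7520947, 6 bp inside the minus-strand gene cux-7 and 170 bp upstream of C07H6.2 on the plus strand. Its pooled signal was 248, and it was also the strongest region of each replicate, at 155 in replicate 1 and 92.3 in replicate 2. Another gene, lig-4, has its 5′ end in reach of this summit and encodes the DNA ligase that joins broken chromosome ends. The second-ranked region lay between F56G4.6 and wbp-4 on chromosome I, 106 bp upstream of the former and 180 bp upstream of the latter. Its signal was 227 in the pooled list, 153 in replicate 1 and 73.7 in replicate 2.

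The next strong members lay at genes of quite different kinds. The fourth-ranked region, between F10E9.7 and F10E9.5, had signals of 189 in the pooled list, 102 in replicate 1 and 84.6 in replicate 2. Rank 7 was at the pair F25H9.6 and F25H9.7, whose 5′ ends are 15 bp apart, with 167 in the pooled list, 109 in replicate 1 and 61.0 in replicate 2. Rank 11 was 28 bp upstream of tasp-1, which by name encodes a taspase-type threonine protease, and 757 bp upstream of K01G5.10. Its signals were 155, 89.4 and 68.1 in the same order.

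Between ced-5 and F01D4.5 the region of rank 14 had 151 in the pooled list, 84.9 in replicate 1 and 60.2 in replicate 2. The product of ced-5 is needed for cells to engulf dying neighbours. Rank 15 lay 8 bp upstream of tag-124 and 120 bp upstream of E02H1.1, with 147, 86.1 and 49.3. At rank 22 the pair was hcp-6, which encodes a condensin subunit that compacts chromosomes, and let-630, with 136, 91.4 and 41.8.

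The region between W02H5.16 and W02H5.19 was of rank 26, with signals of 127 in the pooled list, 66.2 in replicate 1 and 62.5 in replicate 2. That between lron-10 and hpr-9, whose product belongs to the DNA damage checkpoint clamp, was of rank 27, with 126, 79.4 and 53.7. Each of these 10 members was among the 40 strongest regions of both replicates. In all, members held 4 of the first 10 places of the pooled list and 8 of the first 25. Only 19 regions of the list were narrower than the common 390 bp, and 5 of these were members, all within the first 25 places.

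The pairs behind these calls, and the distances measured from them, depend in part on gene models. With RefSeq gene records of the same assembly, an alternative added after the data were seen, 301 regions met the rule and 294 of them were members here. Of the 66 IDR members 64 remained. Those that did not were the region of F10E9.5 and F10E9.7 and that of hpr-9 and lron-10, at ranks 4 and 27.

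Spacing, the distance between the 5′ ends of a pair, was shorter at IDR members than at the others. Its median was 398 bp at the 66 IDR members (quartiles 253 and 574) and 571 bp at the 233 members outside the IDR list (331 and 857). The 2602 head-to-head pairs of the annotation whose spacing the rule allows, from -400 to 2000 bp, had a median of 660.5 bp. At the best divergent regions of replicate 1 the median was 393 bp, and at those of replicate 2 it was 442 bp. Across members the Spearman correlation of signal with spacing was -0.23 (n = 299), given as a description only, since all points come from the same 2 libraries.

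Counted per pair, a region of any rank was most frequent at pairs with 5′ ends 250 to 499 bp apart. In that class 100 of 542 pairs, or 18.5% (15.3 to 22.0%), held a pooled region and 5.17% (3.46 to 7.38%) an IDR region. Of 53 pairs with a spacing of 0 to 99 bp, 5 held an IDR region, or 9.43% (3.13 to 20.7%). Of 496 pairs spaced 800 to 1199 bp, 1.01% did (0.328 to 2.34%), and of 587 pairs spaced 1200 to 2000 bp, 0.511% did (0.106 to 1.49%). The stretch in which a summit can count for both genes changes with spacing. Per Mb of that stretch the number of pairs with an IDR region was 207 at 0 to 99 bp, 59.0 at 100 to 249 bp, 67.2 at 250 to 499 bp, 24.3 at 500 to 799 bp, 9.95 at 800 to 1199 bp and 11.8 at 1200 to 2000 bp. The first of these values rests on 5 pairs. For pairs with a pooled region of any rank the order also changed, with 290 per Mb at 0 to 99 bp, from 7 pairs, 188 at 100 to 249 bp and 240 at 250 to 499 bp.

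**Figure D2:**
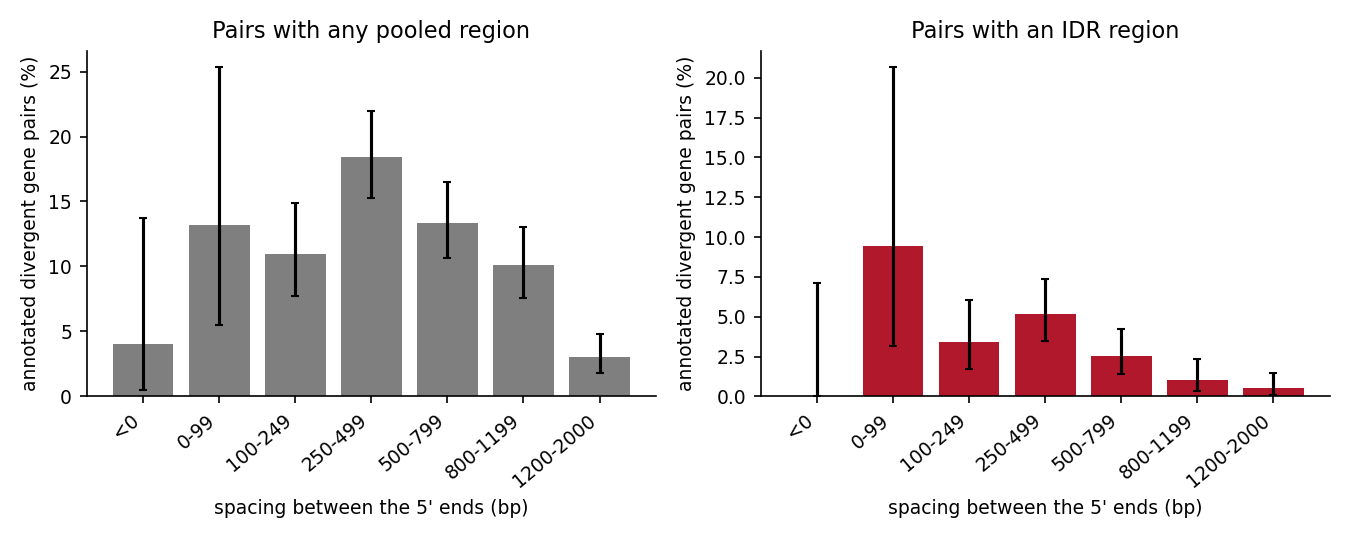
Percent of annotated divergent gene pairs (y axes) that held any pooled region (left) or an IDR region (right), by spacing between the 5′ ends in bp (x axes); bars start at 0 and lines are exact 95% intervals. The share with a pooled region is 18.5% at 250 to 499 bp, and the share with an IDR region is 5.17% there and 0.511% at 1200 to 2000 bp.

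The closest pairs with an IDR region were F32D8.14 and F32D8.5, 12 bp apart, F25H9.6 and F25H9.7, 15 bp apart, and F01F1.11 and F01F1.3, 61 bp apart. The first had a pooled signal of 83.3, with 46.9 in replicate 1 and 35.7 in replicate 2. The last had 92.3, 49.0 and 39.9. The widest were nhl-2 and tag-340, 1423 bp apart, nasp-2 and C50B6.3, 1313 bp apart, and Y38E10A.22 and Y38E10A.24, 1225 bp apart. The product of nhl-2 is a cofactor of microRNA silencing, and nasp-2 is named for a family of histone chaperones. Their pooled signals were 58.6, 110 and 67.4. At the nhl-2 pair the replicates differed in rank, with 265 in replicate 1 and 80 in replicate 2.

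Summits mostly lay between the genes and seldom inside one. Of the 299 members 259 had their summit between the 5′ ends, or 86.6%, and 61 of the 66 IDR members did, or 92.4%. The rule reaches 1000 bp upstream of an end and only 200 bp downstream, which favours such positions. One-strand promoter regions were alike, with 627 of 728 summits (86.1%) upstream of the nearest 5′ end. In the IDR list 86 of 88 one-strand regions (97.7%) lay upstream. The IDR members lay at a median of 125.5 bp from the nearer 5′ end and 258.5 bp from the farther one. For members outside the IDR list these medians were 154 and 412 bp. Within 300 bp of both ends were 41 of 66 IDR members (62.1%) and 78 of 233 others (33.5%). The plus-strand gene was nearer at 34 IDR members and the minus-strand gene at 32.

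**Figure D3:**
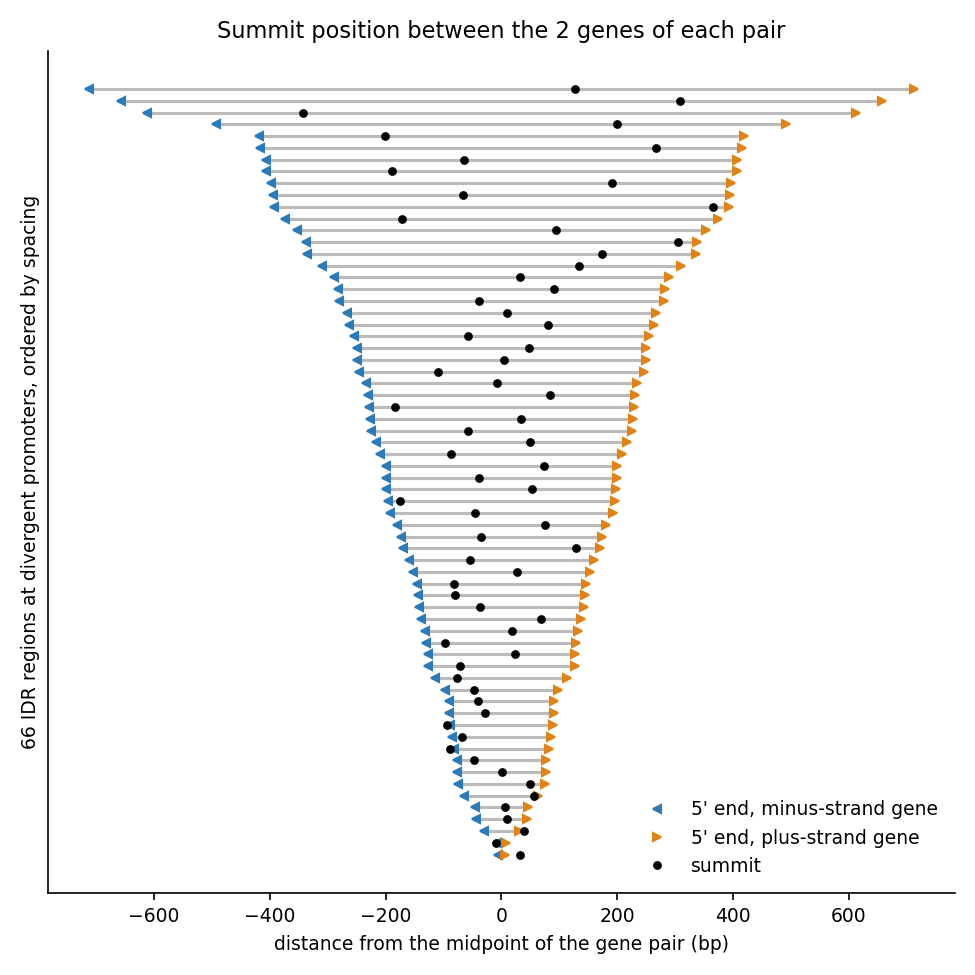
Position of the summit (black dots) relative to the midpoint between the 5′ ends (x axis, bp) at the 66 IDR regions at divergent promoters, ordered by spacing (y axis); triangles are the annotated 5′ ends of the minus-strand (left) and plus-strand (right) gene. In 61 of 66 rows the dot lies between the triangles.

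The rule fixes the largest distance to either end, so members close to that limit were set beside regions just outside it. The 28 members within 100 bp of the limit had a median rank of 952.5, and 2 of them were in the IDR list. The 19 one-strand regions up to 100 bp beyond it had a median rank of 963, and 4 were in the IDR list.

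The genes at members were sorted into kinds by the letters of their names. The chromatin and DNA repair lists also hold genes that were added singly, among them lin-35, lin-54 and ekl-4 in the chromatin list. The chromatin counts depend on that choice, which was made with earlier results of these data known. Of all 19973 protein-coding genes 140 had an IDR member in their window, or 0.701%, and 598 had a member of any rank. Cytosolic ribosomal protein genes had 7 of 81, or 8.64% (3.55 to 17.0%), which were rpl-12, rpl-15, rpl-20, rps-12, rps-20, rps-23 and rps-26. The list of chromatin genes had 6 of 60, or 10.0% (3.76 to 20.5%), and chaperone genes had 5 of 65, or 7.69% (2.54 to 17.0%). Of these IDR members, those among the 198 best regions of replicate 1 covered 6 ribosomal protein, 6 chromatin and 3 chaperone genes. Those among the best of replicate 2 covered 6, 3 and 4. Single genes came from the mitochondrial ribosome (mrpl-18, 1 of 70), translation factors (eif-3.E, 1 of 38) and aminoacyl-tRNA synthetases (ears-2, 1 of 32). Others came from splicing and export (prp-19, 1 of 43) and DNA repair and checkpoint (lig-4, 1 of 25). Collagens (col-71, 1 of 156) and F-box proteins (fbxb-85, 1 of 322) also had a single gene. The intervals of these single-gene kinds all hold 0.701%. One-strand IDR regions lay in the windows of 95 genes (0.476%). They included 2 of 81 ribosomal protein genes, 2 of 60 chromatin genes and 1 of 65 chaperone genes. Splicing and export had 3 of 43 genes there, and repair and checkpoint 1 of 25. The repair and checkpoint list does not include hpr-9, a gene at the member of rank 27. Genes with no name beyond a systematic one made up 57 of the 140, or 40.7%. They were 0.628% of the 9077 such genes, which made up 42.6% of genes in annotated divergent pairs.

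Some kinds are more often in head-to-head pairs than others, so the counts were repeated over genes of annotated divergent pairs. Among these 5204 genes 132 had an IDR member, or 2.54%. In chromatin genes the count was 6 of 21, in ribosomal protein genes 7 of 49 and in chaperone genes 4 of 33. It was 0 of 251 in chemoreceptor genes, which allows a share of up to 1.20%, 0 of 79 in C-type lectin genes (up to 3.80%) and 0 of 64 in histone genes (up to 4.69%). It was also 0 of 45 in nuclear receptor genes and 0 of 45 in detoxification genes (up to 6.67% each). The proteasome had 0 of 22 (up to 13.6%), although 4 of those 22 genes had a member of lower rank. DNA repair and checkpoint genes of such pairs had 0 of 14 (up to 21.4%). These kinds were chosen with earlier results of these data known, and no enrichment test was run.

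**Figure D4:**
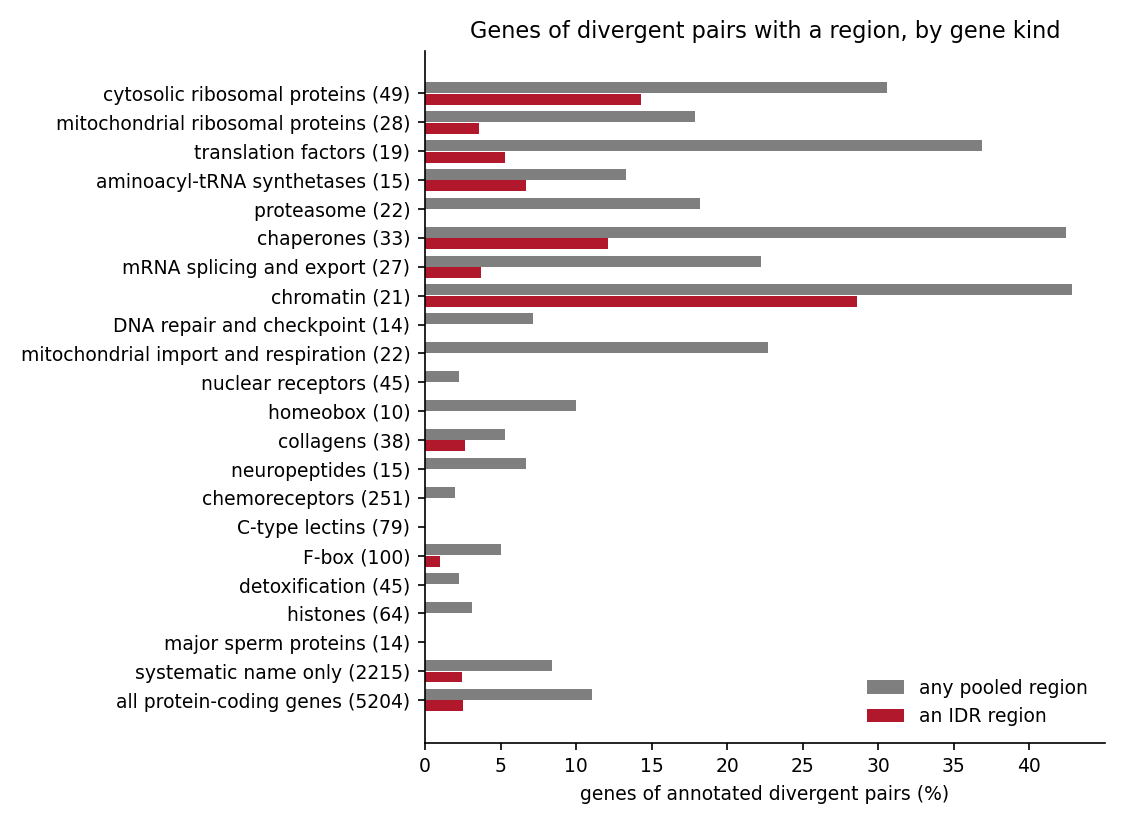
Percent of genes of annotated divergent pairs (x axis) with any pooled region (grey) or an IDR region (red) at the divergent promoter, by gene kind (y axis); the number of such genes is in parentheses. Bars start at 0 and no intervals are drawn, although several kinds rest on few genes. Ribosomal protein genes had 7 of 49 with an IDR region and chemoreceptor genes 0 of 251.

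Ribosomal protein genes with an IDR member were paired with genes of other kinds. The strongest member lay 315 bp upstream of rpl-20 and 147 bp upstream of Y17G9B.5, with a signal of 109 in the pooled list, 65.8 in replicate 1 and 47.0 in replicate 2. The next, between rpl-15 and K11H12.8, had 108, 71.0 and 38.9. Small nucleolar RNA genes, whose products guide the modification of other RNAs, had their 5′ ends in the same reach of 10 members, or 3.34%, where 2.34% of all pooled regions had one. In the IDR list the counts were 4 members (6.06%) and 5 one-strand regions (5.68%). The 4 were the members at rpl-15, rps-23, rps-26 and rps-12, all named after their values were seen. At the rps-20 and ekl-4 pair the microRNA gene mir-354 was in reach of the summit.

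The chromatin list, built from name patterns and genes added singly, holds neither hcp-6 nor nasp-2. Among its 6 genes with an IDR member, the strongest member lay between lin-35, the worm's retinoblastoma gene, and vps-51, a gene of vesicle tethering. Its signal was 99.4 in the pooled list, 54.3 in replicate 1 and 40.1 in replicate 2. The next was 70 bp upstream of hda-11, a histone deacetylase gene, and 206 bp upstream of C35A5.8, with 87.8, 62.5 and 21.2. Ranks there were 50 in replicate 1 and 256 in replicate 2, so the second replicate put it lower. The other 4 genes were set-16, a histone methyltransferase gene, hda-6, another deacetylase gene, ekl-4 and lin-54, a gene of the DREAM repressor complex. A pair can count for more than 1 kind: rps-20 faces ekl-4, and rpl-12 faces lin-54.

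Among chaperone genes the strongest members were at pfd-4, a prefoldin gene whose 5′ end is in reach of the region between B0035.3 and B0035.22, and at cct-8, a gene of the cytosolic chaperonin. The former had a signal of 73.3 in the pooled list, 46.1 in replicate 1 and 25.1 in replicate 2. The latter, shared with Y55F3AR.2, had 67, 37.5 and 27.5. The 3 remaining chaperone genes were hsp-60, dnj-12 and dnj-29.

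Of the kinds with a single gene, prp-19, a splicing factor gene that faces K10D2.5, had the strongest member after that at lig-4, with 117 in the pooled list, 70.6 in replicate 1 and 46.8 in replicate 2. The member of mrpl-18 and C14B9.8 had 85.9, 43.2 and 40.2, and that of fbxb-85 and hex-3 had 80.2, 43.7 and 37.4. The member of col-71 and Y49F6B.2 had 65.0, 38.9 and 20.3, and that of eif-3.E and B0511.17 had 56.1, 32.6 and 23.3. The region between ears-2 and uncp-18 stood out by its replicates: its pooled signal was 57.7, and it ranked 120 in replicate 1 (43.9) and 5130 in replicate 2 (11.7).

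Most IDR members were strong in both replicates, with a few exceptions. The IDR list was made from these same replicates and holds the strongest pooled regions, so this is largely set by its making. A region of replicate 1 overlapped 97.3% of members, one of replicate 2 overlapped 86.6%, and both did so at 83.9%. Over all nuclear pooled regions these shares were 94.3%, 83.3% and 77.6%. Over one-strand promoter regions they were 95.9%, 86.0% and 81.9%. Of the 66 IDR members 58 were among the 198 best of replicate 1, 50 among those of replicate 2 and 43 among both. For the 88 one-strand IDR regions these counts were 79, 68 and 61. The Spearman correlation of replicate signals was 0.51 over the 251 members found in both lists and 0.59 over 65 IDR members. Over members outside the IDR list it was -0.002 (n = 186), and over one-strand regions outside it -0.040 (n = 508). Those members span pooled signals of only 24.5 to 54.8, and some share a replicate region with a stronger neighbour. The value is therefore no measure of how reproducible they are. The weakest replicate support in the IDR list was at 5 members on chromosomes IV and I, named after their values were seen. The region between algn-14 and M02B7.2 ranked 56 in replicate 1 and overlapped no region of replicate 2. That between hda-6 and F41H10.4 ranked 72 in replicate 1 and 9717 in replicate 2, and that between dnj-29 and ndua-2 ranked 138 and 2334. The region between rpl-12 and lin-54 ranked 150 and 1009, and that of ears-2 is given above.

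Chromosome III held the most IDR members and the X chromosome none. On chromosome III 22 of 68 members were in the IDR list (32.4%, 21.5 to 44.8%), and 5.60% of its 393 annotated divergent pairs had an IDR region. On the X chromosome 0 of 11 members were, which allows a share of up to 27.3%, and 0 of 181 annotated pairs, which allows up to 1.66%. The strongest member on X, between nmat-1 and ucr-2.1, was of rank 261, with 35.5 in replicate 1 and 8.75 in replicate 2. Of the 11 members on X, 1 was among the best regions of replicate 1 and 1 among those of replicate 2. The other chromosomes had between 7 of 53 (II) and 15 of 52 (IV) members in the IDR list. Among one-strand promoter regions the IDR share was also largest on chromosome III, at 18.4% (21 of 114). It was above the share of members on II, with 16.2% (21 of 130) against 13.2%, and on X, with 6.19% (7 of 113). The interval of members on II, 5.48 to 25.3%, and the limit on X hold these one-strand shares. On chromosomes I, III, IV and V the share of members was the larger.

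The 8-base elements GAGTACAC and CTAGGCCA, taken from an earlier look at IDR peaks of these same data, were searched on both strands within 75 bp of each summit, with up to 1 mismatch. Because they came from these peaks, their shares in IDR regions are descriptions and no support. At least one element was in 83 of the 299 members, or 27.8%, where 15.5% of all nuclear pooled regions held one. Among IDR members 42 of 66 did, or 63.6% (50.9 to 75.1%), and among one-strand IDR regions 45 of 88, or 51.1% (40.2 to 61.9%). Both elements were present at 28.8% of IDR members (18.3 to 41.3%) and at 18.2% of one-strand IDR regions (10.8 to 27.8%). These intervals overlap. Outside the IDR list the shares with at least one were 17.6% and 15.3%, and at ranks 199 to 500 they were 25.4% and 27.9%. All 8 members among the 25 strongest regions held an element, as did 11 of the 13 one-strand promoter regions there.

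Both elements occurred at 19 IDR members, and their order was then compared. Where an element had several copies, the one with fewest mismatches and then nearest the summit was used. In all 19 members CTAGGCCA lay on the 3′ side of GAGTACAC, read along the strand of the latter, with 14 to 41 bases from centre to centre. The distance was 14 or 15 bases in 9 of the 19, all with the elements on opposite strands, as in the printed sequences of rict-1 and gfm-1 and of nasp-2 and C50B6.3. Over every pair of copies, CTAGGCCA lay on the 3′ side throughout in 18 of the 19, and an opposite-strand pair at 14 or 15 bases occurred in 10. F01D4.5 and ced-5 has such a pair and is counted at 40 bases through its copy without a mismatch. With the chosen copies the distance was 20 bases in 2, as at C56A3.6 and cav-2, 27 to 32 in 5 and 37 to 41 in 3. Among 16 one-strand IDR regions with both elements the order was the same in 14. In IDR members GAGTACAC pointed toward the nearer gene in 15 of 29. Distance classes were formed after the values were seen.

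The letters before GAGTACAC were also shared. In the 29 IDR members that held it, the most frequent letter at each of the 10 positions directly before it spelled TGTCCGAGAG. The 27 copies in one-strand IDR regions, which are other regions of the same libraries, gave the same 10 letters. With up to 2 mismatches to it these letters preceded the element in 20 of 29 IDR members and in 17 of 27 one-strand IDR regions. They did so in 3 of 21 members outside the IDR list and in 15 of 61 one-strand regions outside it. In the printed sequences they can be seen before the capitals at C56A3.6 and cav-2 and at C45G9.11 and C45G9.2.

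Flank and element joined into 18 bases were then searched in the genome with up to 3 mismatches. The printed sequence of W02H5.16 and W02H5.19, in which neither 8-base element was found, holds a copy with 3 mismatches on its minus strand. Among IDR members 22 of 66 held the joined element within 75 bp of the summit (33.3%, 22.2 to 46.0%), among one-strand IDR regions 22 of 88 (25%, 16.4 to 35.4%), and among all pooled regions 2.86%. The share at members fell along the list, from 75% of the 8 members in the first 25 places to 41.2% at ranks 26 to 66, 31.8% at 67 to 132, 10.5% at 133 to 198 and 8.45% at 199 to 500. At ranks 501 to 1000 it was 0 of 61.

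Copies of the joined element in divergent windows coincided with an IDR summit more often than copies elsewhere. Of 71 copies in divergent windows 24 lay within 75 bp of an IDR summit, or 33.8% (23.0 to 46.0%). In one-strand windows 26 of 291 did, or 8.93%, and outside the windows 10 of 954, or 1.05%. With the best regions of replicate 1 in place of the IDR list the counts were 24, 26 and 10, and with those of replicate 2 they were 24, 24 and 8. Copies without a mismatch gave 5 of 9, 5 of 24 and 3 of 41. Copies whose surrounding 50 bases occur once in the genome gave 24 of 70, 26 of 262 and 10 of 823. The flank was read from the IDR members themselves, so these counts describe the data it came from, and the share of IDR regions that held it in divergent and one-strand windows had overlapping intervals.

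**Figure D5:**
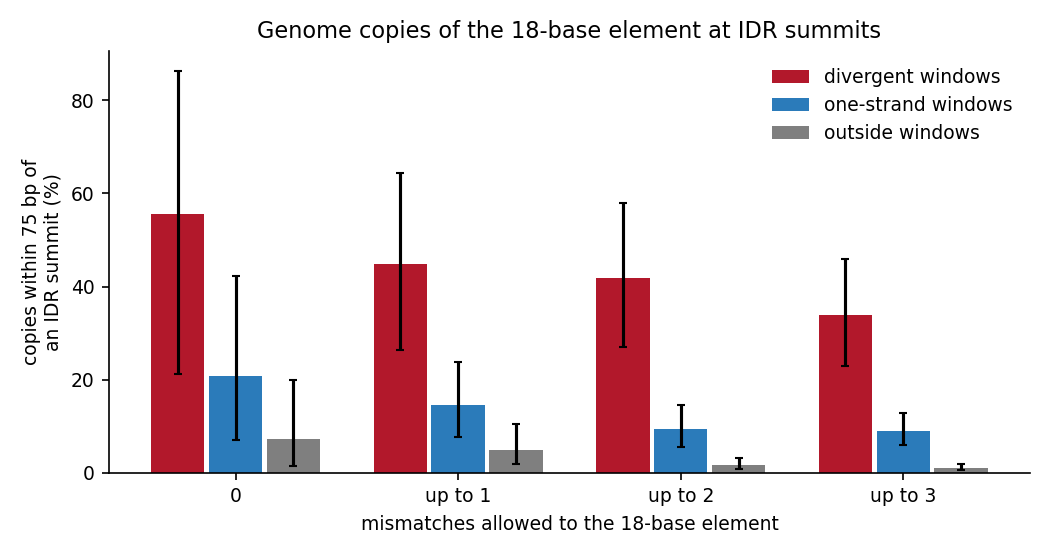
Percent of genome copies of the joined 18-base element that lay within 75 bp of an IDR summit (y axis), by the number of mismatches allowed (x axis), for copies in divergent windows (red), in one-strand windows (blue) and outside promoter windows (grey); bars start at 0 and lines are exact 95% intervals. With up to 3 mismatches the shares are 33.8, 8.93 and 1.05%.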

How the data were processed

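The deposited lists give each region's coordinates on ce11, its summit and a signal value that the authors computed. The scale of that value, like the aligner, the peak caller and the cut-off of the IDR procedure, is not given in the sources used here. Notes deposited with the files say that regions of the pooled list were called from both replicates against a control. They add that the other lists on ce11 went into the IDR list. Lists on ce10 and the control were not used here, and no read counts are held, so depth is unknown.

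Summits were placed against the 5′ ends of 19973 protein-coding genes of Ensembl release 115 (WBcel235), and sequence came from the RefSeq genome of the same assembly. A pooled region counted as an IDR region if it had the same coordinates. The plan had named an overlap of at least 1 bp, but neighbouring regions overlap, so that choice is given as an alternative. Nearest pairs had the closest 5′ end on each strand. Elements were searched within 75 bp of the summit. Window placement was tested on simulated data. Scripts ran under Python 3.11.15 with pandas 2.3.3 and NumPy 2.4.6 for the tables, SciPy 1.17.1 for intervals and Matplotlib 3.10.9 for figures.

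The members, gene kinds and elements were chosen with earlier results of these data known. Named genes are the pairs at the 10 strongest members, at the strongest 2 IDR members of each gene kind and at the 3 IDR members of smallest and of largest spacing, and any gene outside this rule was named with its values in view. The joined element and its mismatch limit were also chosen then. Alternatives were other windows, gene records, gene types, overlap rules, search widths and either replicate alone.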

Additional observations from a re-analysis of the deposited data

How the results depend on the processing

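In all 13 alternatives that gave both shares, the larger share was at divergent promoter regions, with a ratio of 1.497 to 5.049 (1.826 as reported). The share was that in the IDR list or its stronger 50%, except that each replicate alone was counted by its best 198 regions. Replicate 1 alone gave a ratio of 4.232 and replicate 2 alone 5.049. The largest ratio from the other alternatives was 2.16. Of 60 alternative values 41 stayed within the interval of the reported value or, for the number of members, within 1.5 times it. With a window of 500 bp upstream and 100 bp downstream there were 188 members, 28.72% of them in the IDR list, and their median rank stood at 16.7% of the list instead of 21.46%. With genes of every kind there were 518 members, 14.67% in the IDR list, at a median rank of 33.19% of the list, and the one-strand share was 9.798%. A window of 2000 bp upstream gave a one-strand share of 8.751%. Counting the stronger 50% of the IDR list gave 12.37% and 6.319%, fewer by construction. Without a mismatch 15.05% of members held an element. With each replicate left out in turn, the list of the other replicate and its best 198 regions were used, and these lists are longer by construction. They gave 756 to 847 members, of which 7.438 to 8.201% were among the best regions, one-strand shares of 1.624 to 1.758% and median ranks of 31.26 to 33.03% of the list. Spacing kept within its interval, at 393 to 442 bp. For the moves with other windows and gene types the cause was not tested.

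No paired analysis was possible because there is 1 group. The pooled list ends at a signal of 24.5, so regions below that are not counted in any class. Both replicates come from 1 transgenic line, and without read counts a missing region cannot be told apart from one that was too weak to be listed. Annotated 5′ ends set the class of each region.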
